A study of Mus musculus with 11 samples.

Results

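The 10 genes described here answer to low oxygen and act at mitochondria, in stress responses or as secreted signals: Hif1a, Vegfa, Adm, Bnip3, Bnip3l, Pdk1, Fam162a, Ddit4, Ier3 and Txnip. They are the entries with these symbols in both expression tables, 10 of the 20475 genes listed in each. They were chosen from differences already seen between germline Kif20a knockout and wild-type libraries. Their values in that comparison are therefore a description, without a test, and the counts of members that follow from it carry no weight beside the background. The inducible libraries are other samples, and there the genes were tested.

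Poly(A) RNA was sequenced from E12.5 mouse embryos, from tissue that the sample labels name forebrain and the study's methods name cortical cells. Germline knockouts and wild types gave 3 libraries each. The germline knockouts carried a knockout-first allele, a cassette with LacZ and a neomycin resistance gene inside Kif20a, derived from a single embryonic stem cell clone crossed to C57BL/6J mice. For the inducible comparison there were 2 libraries of wild types and 3 of knockouts, after tamoxifen on E9.5 and again on E10.5. In the knockouts, Nestin-CreERT2, a tamoxifen-activated Cre recombinase expressed in neural progenitors, deleted the floxed gene (Nestin-CreERT2; Kif20a fl/fl). The labels call the inducible controls wild type, and the study's controls for this cross are Kif20a fl/fl littermates without the Cre, which received tamoxifen as well. The sources do not say whether each library was a separate embryo, so a p-value measures the spread between these libraries only.

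Cells sense oxygen through hydroxylases that mark the alpha subunit of hypoxia-inducible factor (HIF) for destruction, so that HIF-1 alpha protein builds up when oxygen is scarce, largely without a change in its mRNA. With its partner ARNT it binds hypoxia response elements and switches on genes for glucose uptake, glycolysis, mitochondrial turnover, restraint of growth and the growth of blood vessels. The embryonic cortex develops at low oxygen and is vascularized from the surrounding plexus, from which VEGF secreted by neural progenitors draws vessels inward.

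Kif20a itself checked the labels. It stood at 2456, 2295 and 2680.2 normalized counts in germline wild types and at 409, 374 and 503 in the germline knockouts, where the mean was 17.3% of the wild-type mean. In the inducible comparison it stood at 4760.1 and 4844 normalized counts in wild-type libraries and at 3125, 2915 and 2853 in knockouts, 61.7% of the wild-type mean. All knockout libraries lay below all wild-type libraries of their own comparison. The tables were normalized separately, with totals of 13048716 to 15551274 normalized counts per library in the germline and 24118520 to 24497307 in the inducible table, and no level was compared between them. These totals follow from the scaling and do not give sequencing depth. In 7 libraries with at most 10 values between 0 and 0.3, the most frequent value near 1, taken as the worth of 1 read, was 0.79 to 1.0 in the germline and 0.94 to 0.99 in the inducible table. Values above 0 and under 0.3, less than 1 read, numbered 1572 in wild type 2 and 1256 in knockout 1 of the germline table, and 581 in wild type 2 and 747 in knockout 3 of the inducible one, and the depth of these 4 libraries was not read from the values.

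Some libraries stood apart before any of the 10 genes was considered. Germline knockout replicate 2 lay at 91.2 on the first principal component, which carried 58.0% of the variance, against -38.4 to 3.84 for the other germline libraries. The 10 markers of cranial mesenchyme and pericytes, led by Col1a2, summed to 4504, 2811 and 4568 normalized counts in germline wild-type libraries and to 12370.1, 280.0 and 5985 in the knockouts. The 10 microglial markers, led by Csf1r, summed to 828, 586 and 498 in wild-type libraries and to 589.9, 24.1 and 626 in knockouts. Knockout replicate 2 thus held little of either signal, whereas knockout replicate 1 held the most mesenchymal signal of the 6. The 10 neuronal markers, led by Map2, summed to 54486, 53033 and 45144 in the wild-type libraries and 23454, 92799.7 and 29545 in the knockouts. The 10 erythroid markers, led by Hba-a2, summed to 150884, 98041 and 125185 against 153734, 34417 and 161845, the 10 endothelial markers, led by Kdr, to 2144, 1604 and 3163 against 3549, 833 and 2579, and the 10 immediate early genes, led by Jun, to 1408, 1784 and 1547 against 1384, 3871 and 1396. Of these immediate early genes, 4 lay higher in every knockout than in any wild-type library and 0 lower, beside 5.90% and 7.55% of all genes. No listed marker was at 0 in every library. In bulk tissue fewer cells of a type and less RNA per cell cannot be told apart, and the part of these markers in the results was not tested.

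Levels of Y-linked genes also differed between libraries, and whether a library mixed embryos of both sexes is not known. The Y-linked gene Kdm5d stood at 485, 1.63 and 1443 normalized counts in germline wild-type libraries and at 0.52, 0 and 398 in knockouts. Germline knockout replicates 1 and 2 thus lacked a signal that replicate 3 held, and most of the 10 genes divide the knockouts in the same way below. Wild-type replicate 2 was low in Kdm5d too, and the part of sex in the results was not tested. In the inducible comparison the entry of Kdm5d was 0 for each wild-type library and 1350.2, 1259 and 1386 for the knockouts. That of Eif2s3y, also Y-linked, was 0 for each wild type and 919.5, 863 and 1039.6 for the knockouts. By these entries sex and genotype cannot be told apart there. A further Y-linked gene, Ddx3y, did not follow them, at 0.98 and 1.07 in wild types and at 393, 2 and 188 in knockouts. All of these genes, and Kif20a, are among 106 entries of the inducible table that are written to fewer decimals than the rest, for a reason the sources do not give. The inducible values of Kif20a and the reading of sex therefore rest on entries of uncertain origin, whereas none of the 10 genes is among them.

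In germline knockout replicates 1 and 2, 8 of the 10 genes lay above the whole wild-type range, Txnip lay below it and Hif1a within it. With only 3 wild-type libraries this is common: 28.7% of all genes tested lay above the wild-type range in replicate 1 and 38.7% in replicate 2, and 37.6% and 37.2% below it. In knockout replicate 3, Bnip3, Pdk1 and Vegfa lay above the wild-type range by a small margin, Bnip3l, Fam162a, Ier3 and Adm within it, and Ddit4, Txnip and Hif1a below it, beside 21.3% of all genes above and 28.8% below. Kif20a was reduced in all 3 knockouts, to 409, 374 and 503 normalized counts in replicates 1, 2 and 3. Whether its remaining level goes with the values of the 10 genes was not tested.

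**Figure D1:**
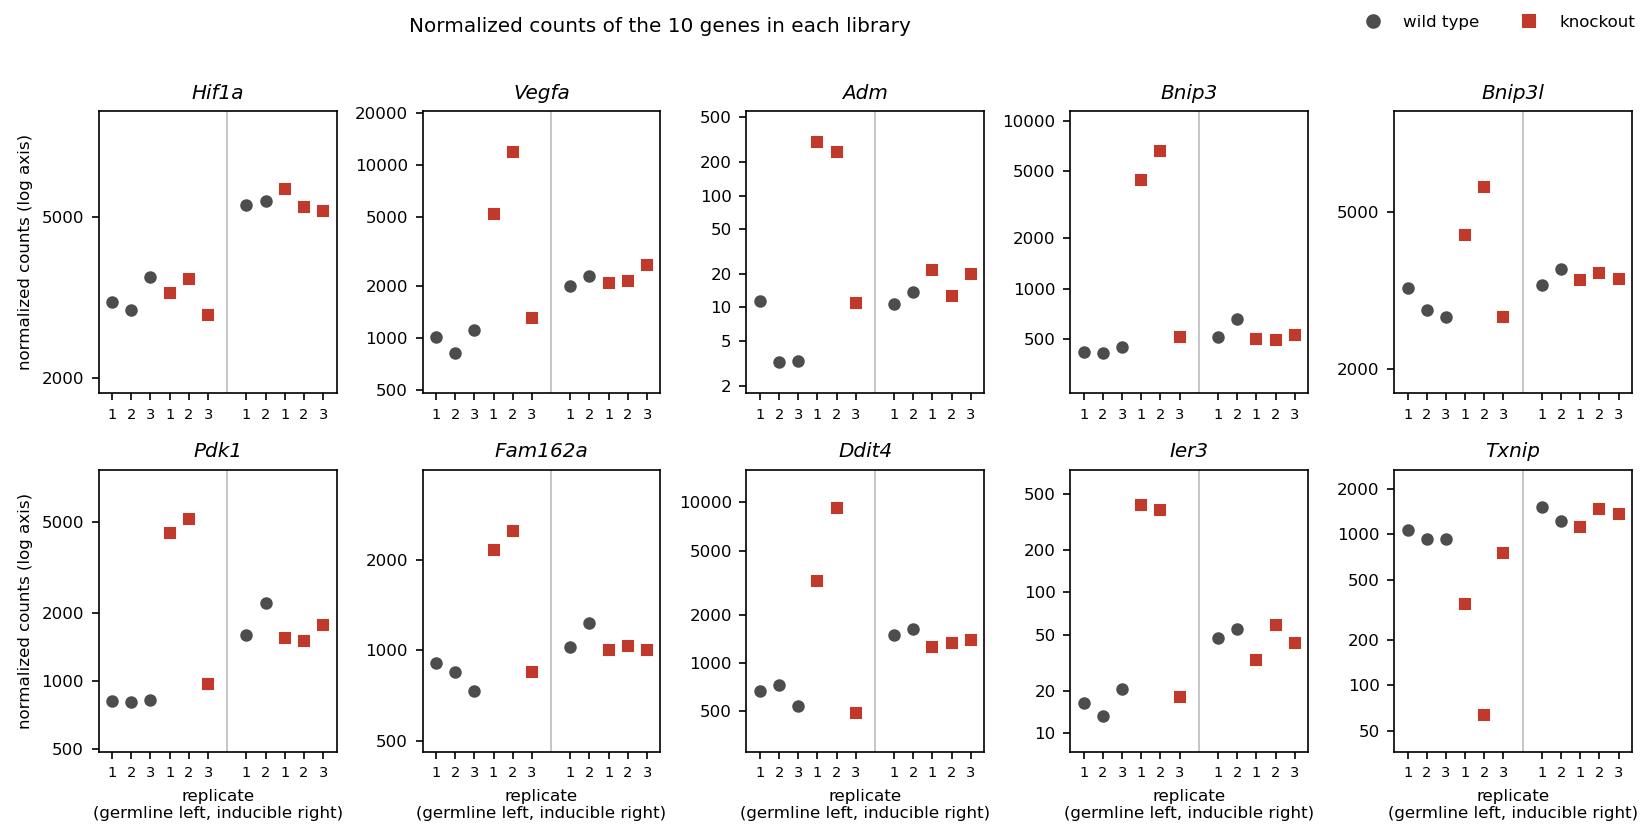
Normalized counts (log axis, a scale of its own in each panel) of the 10 genes in each library, with circles for wild-type and squares for knockout libraries, germline to the left and inducible to the right of each grey line. Germline knockout replicates 1 and 2 sit away from the other germline libraries for every gene but Hif1a, and the inducible libraries lie close together.

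Hif1a, the oxygen-regulated subunit (chr12:75002362-75048517 in NCBIM37, the mm9 build, with GENCODE M1), did not share this pattern. It stood at 3077, 2942 and 3556 normalized counts in germline wild-type libraries and at 3247, 3500.5 and 2854 in knockouts. The groups overlapped, and the log2 difference between the group means was 0.0037 on the log2(normalized count + 1) scale that all log2 differences here use.

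Both secreted signals were high in germline knockout replicates 1 and 2. Vegfa (chr17:46153942-46169326), the growth factor that draws vessels into the brain, stood at 1012, 821 and 1109 normalized counts in wild-type libraries and at 5202, 11873 and 1302 in knockouts. Every knockout library lay above every wild-type library, at 5.31, 12.1 and 1.33 times the wild-type mean. Adm (chr7:117771175-117773331), which encodes the vasodilator peptide adrenomedullin, stood at 11.4, 3.23 and 3.31 normalized counts in wild-type libraries and at 302, 245 and 11.1 in knockouts. The first pair of knockouts held it at 50.4 and 41.0 times the wild-type mean, whereas the value of replicate 3 was just under that of wild-type replicate 1. Adm was close to 3 counts in wild-type replicates 2 and 3, and replicate 1 alone set the upper end of the wild-type range and much of the mean, so these ratios are imprecise.

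Of the mitochondrial genes, Bnip3 differed most. Bnip3 (chr7:146082519-146101202), a receptor of the outer mitochondrial membrane for mitophagy, stood at 419.99, 409.7 and 447 normalized counts in wild-type libraries and at 4459, 6621 and 515 in knockouts, without overlap. Its paralogue Bnip3l (chr14:67604076-67627714), which clears mitochondria from maturing red blood cells, stood at 3217, 2820.4 and 2700.0 against 4377, 5809.6 and 2714, and the groups overlapped through knockout replicate 3. The difference between the paralogues was one of size: replicates 1 and 2 reached 10.5 and 15.6 times the wild-type mean for Bnip3 and 1.503 and 1.99 times for Bnip3l. Pdk1 (chr2:71711281-71741915), a kinase that shuts pyruvate dehydrogenase and so keeps pyruvate out of the mitochondrial cycle, stood at 817, 804 and 828 normalized counts in wild-type libraries and at 4461, 5162 and 972 in knockouts. Its wild-type libraries spanned 0.04 on the log2 scale, and all knockouts lay above them. Fam162a (chr16:36043930-36071601), a mitochondrial protein that responds to HIF-1, stood at 907, 846 and 736 against 2149, 2489.5 and 846, so that replicate 3 overlapped the wild type.

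The stress genes moved in both directions. Ddit4 (chr10:59412423-59414518), also called Redd1, an inhibitor of the growth kinase complex mTORC1, stood at 671, 734 and 541 normalized counts in wild-type libraries and at 3245, 9151 and 488 in knockouts. Knockout replicate 3 was the lowest of the 6 libraries and replicate 2 the highest. Ier3 (chr17:35958629-35959868), an early response gene linked to cell survival, stood at 16.4, 13.2 and 20.5 against 414, 386 and 18.1. Replicate 3 again lay within the wild-type range, and the other knockouts reached 24.8 and 23.1 times its mean. Txnip (chr3:96361880-96365806), which binds thioredoxin and limits glucose uptake, ran the other way, at 1066, 928 and 934 normalized counts in wild-type libraries and at 348, 64.0 and 747 in knockouts. All knockouts lay below all wild types, at 0.356, 0.0656 and 0.765 times the wild-type mean.

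Taking each knockout library against the wild-type mean, 8 genes in replicate 1, 8 in replicate 2 and 1 in replicate 3 (Adm) were at least 1.5-fold higher, beside 12.5%, 17.6% and 5.14% of all 13938 genes tested. Txnip was at least 1.5-fold lower in replicates 1 and 2 and no member was in replicate 3, beside 9.61%, 17.7% and 6.02% of all genes. The median log2 difference over the 10 genes was 2.37, 3.13 and 0.08 in the 3 libraries, against -0.05, 0.02 and -0.03 over all genes. Replicate 3 held the lowest value of the 3 knockouts for 9 genes and the highest for Txnip.

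**Figure D2:**
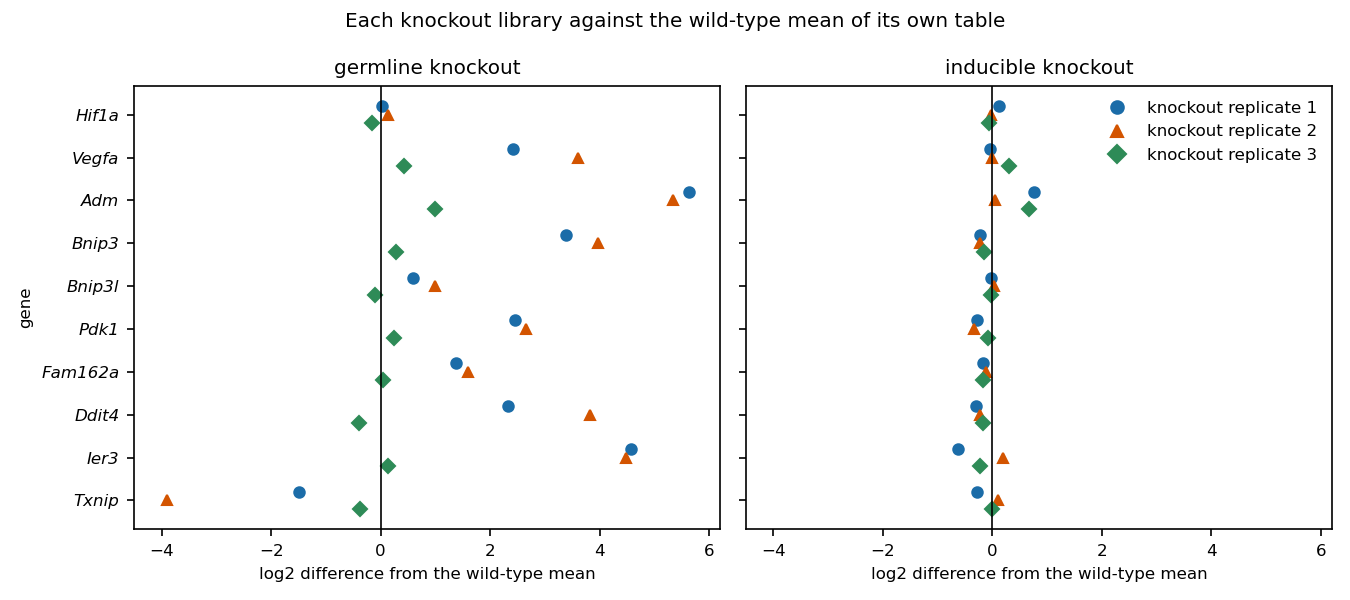
Log2 difference of each knockout library from the wild-type mean of its own table (horizontal axis) for each gene (vertical axis), with a symbol for each knockout replicate. Germline replicates 1 and 2 reach 5.63 and 5.34 for Adm and -1.48 and -3.91 for Txnip, whereas all inducible libraries lie between -0.62 and 0.76.

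As group differences, the germline log2 fold changes were 3.99 for Adm, 3.06 for Ier3, 2.54 for Bnip3, 2.15 for Vegfa, 1.92 for Ddit4, 1.79 for Pdk1, 1.00 for Fam162a, 0.50 for Bnip3l and -1.92 for Txnip. At the thresholds of the study, applied here to a limma fit and not to the fit of the authors (1.5-fold, with P of at most 0.05 before adjustment), 6 genes were counted as higher (Bnip3, Pdk1, Fam162a, Ier3, Adm and Vegfa) and 1 as lower (Txnip), beside 2.07% and 0.667% of all genes tested. Ddit4 was not counted in this fit, whereas the study lists it among the up-regulated genes of the germline knockouts. Adm was counted, although its wild-type mean of 5.98 lay under the filter on low values. The groups did not overlap for 3 higher genes (Bnip3, Pdk1 and Vegfa) and 1 lower gene (Txnip), beside 5.90% and 7.55% of all genes. Because this contrast chose the genes, the thresholds sort them here and test nothing, and nothing is read from these counts. The counts also turned on single libraries. With knockout replicate 1, 2 or 3 left out the higher count was 0, 4 or 8, beside 146, 587 or 617 of all genes. With wild-type replicate 1, 2 or 3 left out it was 1, 1 or 4, beside 115, 133 or 226. With every library 289 of all genes were higher and 93 lower. The lower count fell to 0 when knockout replicate 1 was left out, beside 55 of all genes. The same held for wild-type replicate 1, 2 or 3, beside 42, 46 or 128. Without knockout replicate 2 or 3 it was 1, beside 642 or 403. The fold changes moved less where a wild-type library was left out, with log2 values of 2.51 to 2.58 for Bnip3 and 2.03 to 2.24 for Vegfa. Without knockout replicate 1 they were 3.16 for Adm, 2.12 for Bnip3, 2.01 for Vegfa, 1.71 for Ddit4 and -2.15 for Txnip. Without knockout replicate 2, the library with little mesenchymal and microglial signal, the log2 fold changes were 3.31 for Adm, 1.83 for Bnip3, 1.42 for Vegfa, 0.97 for Ddit4 and -0.93 for Txnip. Without knockout replicate 3 they were 5.49, 3.67, 3.01, 3.08 and -2.70. With knockout replicate 1, 2 or 3 left out, the log2 fold change was 2.30, 2.35 or 4.52 for Ier3 and 1.455, 1.35 or 2.55 for Pdk1.

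Levels can be compared between genes only per length. Per kilobase of annotated exon, the germline wild-type mean was 1306 ± 136 normalized counts for Fam162a, 888 ± 82.5 for Bnip3l, 586 ± 59.3 for Hif1a and 385 ± 58.4 for Ddit4 (SD, n = 3 libraries). Txnip (345 ± 27.6), Vegfa (269 ± 40.2), Bnip3 (242 ± 11.04) and Pdk1 (158 ± 2.29) followed, and Ier3 (14.8 ± 3.23) and Adm (4.31 ± 3.38) were lowest. Ddit4 and Txnip overlapped between libraries, as did Vegfa and Bnip3. In the inducible wild-type libraries the per-kilobase order likewise opened with Fam162a, Bnip3l, Hif1a and Ddit4 and closed with Ier3 and Adm. The mitochondrial genes thus held both the most abundant messages of the set and one of the scarcer ones, and Adm and Ier3, with the largest germline ratios, had the lowest wild-type levels.

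The promoters of 4 genes are shown, since HIF-1 recognizes a short run of letters in DNA and these genes cover a mitochondrial gene, a stress gene, a secreted signal and the gene that was lower. The stretches are the 250 bases before the transcript start, 5′ to 3′ on the gene's strand, from RefSeq on GRCm38.p6, another build than the gene positions above. Capitals mark ACGTG and GCGTG, the core of the hypoxia response element, and CACGTG, the E-box, which contains ACGTG, on either strand (CACGT and CACGC are the same cores read from the other strand).
Bnip3 (chr7:138909507-138909756, minus strand): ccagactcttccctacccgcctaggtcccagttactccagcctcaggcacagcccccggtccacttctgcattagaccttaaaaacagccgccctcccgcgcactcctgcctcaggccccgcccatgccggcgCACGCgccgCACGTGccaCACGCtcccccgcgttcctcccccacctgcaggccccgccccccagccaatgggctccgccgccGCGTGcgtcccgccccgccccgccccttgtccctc
Ddit4 (chr10:59951771-59952020, minus strand): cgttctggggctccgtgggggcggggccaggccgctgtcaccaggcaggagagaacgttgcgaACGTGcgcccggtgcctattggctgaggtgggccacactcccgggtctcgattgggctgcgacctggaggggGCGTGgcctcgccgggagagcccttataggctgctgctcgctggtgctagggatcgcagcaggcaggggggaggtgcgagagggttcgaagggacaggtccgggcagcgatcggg
Adm (chr7:110627407-110627656, plus strand): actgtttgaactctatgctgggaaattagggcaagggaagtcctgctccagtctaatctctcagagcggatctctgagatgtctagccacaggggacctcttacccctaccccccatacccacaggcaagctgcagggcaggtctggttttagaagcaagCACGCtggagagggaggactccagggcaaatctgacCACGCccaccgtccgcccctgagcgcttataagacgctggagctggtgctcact
Txnip (chr3:96557707-96557956, plus strand): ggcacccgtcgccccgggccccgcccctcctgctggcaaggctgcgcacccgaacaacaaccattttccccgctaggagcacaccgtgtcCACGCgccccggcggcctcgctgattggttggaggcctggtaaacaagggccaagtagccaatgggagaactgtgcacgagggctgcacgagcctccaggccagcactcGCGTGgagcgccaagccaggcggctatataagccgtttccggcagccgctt

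Counting the base before the start as -1, Bnip3 held 5 matches to either core between -117 and -35, among them an E-box at -108. Ddit4 held ACGTG at -187 and GCGTG at -115, Adm held GCGTG on the other strand at -90 and -54, and Txnip held GCGTG at -51 and, on the other strand, at -160. Of the 10 genes, 9 matched a promoter by symbol, with 11 windows of 250 bases before to 50 after a start, and Bnip3l was not matched. All 9 held ACGTG or GCGTG in a window (9 of 11 windows), beside 43.8% of all 32851 windows. ACGTG was in 6 of the 11 windows beside 19.6% of all, GCGTG in 7 beside 32.4%, and CACGTG in 2 (Bnip3 and Hif1a) beside 7.15%. Txnip, lower in the germline knockouts, and Hif1a, with overlapping groups, held such letters as the other genes did. A match describes the letters and not a binding site.

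**Figure D3:**
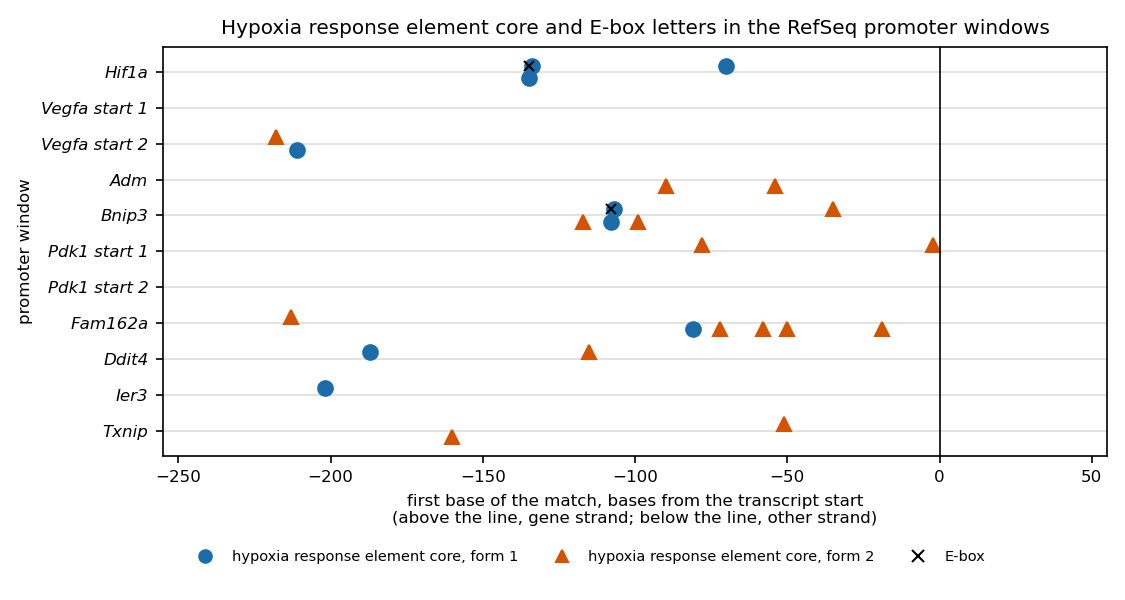
Position of each match relative to the transcript start (horizontal axis, bases) in the 11 promoter windows of 9 genes (vertical axis), with circles for ACGTG, triangles for GCGTG and crosses for CACGTG, above the line on the gene's strand and below it on the other. All matches begin before the start (a Pdk1 match at -2 runs across it), and the Vegfa start 1 and Pdk1 start 2 windows hold none.

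Genes of the same pathways were then followed as lists. Of 38 further HIF targets for glucose uptake, glycolysis, lactate export, collagen hydroxylation and other roles, 20 were counted as higher and 0 as lower in the germline knockouts, beside the 2.07% and 0.667% of all genes. The median log2 fold change was 1.06 against -0.04 for all genes, and by library the median was 1.36, 1.78 and 0.10. The list, like the 10 genes, was written with earlier results of these libraries known and is no independent evidence. P4ha2, a collagen prolyl hydroxylase, stood at 39.5, 39.4 and 41.7 normalized counts in wild-type libraries and at 552, 1327 and 65.3 in knockouts. Slc16a3, the lactate exporter MCT4, stood at 134, 229 and 218 against 2530.4, 1710.0 and 349, and Slc2a3, the glucose transporter GLUT3, at 207, 225 and 293 against 2605, 2950.0 and 312. Hk2, the first enzyme of glycolysis, stood at 478, 702 and 715 against 3713, 5874 and 717. In these 4 genes, too, replicates 1 and 2 were far above the wild type. Replicate 3 lay much closer. That it was above every wild-type library in each follows from naming genes without overlap. Of the 38, 13 were higher without overlap, beside 5.90% of all genes.

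The other lists had medians closer to 0. At the shares of all genes (2.07% and 0.667%) lists this short would hold fewer than 1 counted gene on average, so a count of 0 in them says little, and differences between lists were not tested. Of 14 partners, hydroxylases and cofactors of HIF, 0 were counted in either direction (0 by limma at an unadjusted P under 0.05), with a median log2 fold change of 0.16. Hsp90ab1 and Hsp90aa1, chaperones that hold HIF-1 alpha and the most abundant of the list, had log2 fold changes of 0.22 and -0.15 with overlapping groups. Of the 13 genes of the pyruvate dehydrogenase complex, its other kinases and its phosphatases, 0 passed, and the median was -0.20. Its subunits Pdha1 and Dld, with overlapping groups, had log2 fold changes of 0.09 (standard error 0.16) and -0.26 (standard error 0.14). None of the 20 mitophagy genes outside the set passed (0 counted, median -0.12), where the autophagy genes Nbr1 and Gabarap gave -0.14 and 0.06. None of the 16 mTORC1 genes passed (0 counted, median 0.03), where Tsc2 and Mtor gave 0.19 and 0.08, and none of the 12 tested ligands and receptors of VEGF and adrenomedullin signalling did (0 counted, median 0.06), where the co-receptors Nrp2 and Nrp1 gave 0.27 and -0.02. A P that misses the threshold does not show that values did not differ. By limma, 2 pyruvate dehydrogenase genes, 1 mitophagy gene, 1 mTORC1 gene and 0 signalling genes had an unadjusted P under 0.05 below the 1.5-fold change.

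Of the 16 genes around TXNIP and thioredoxin, 1 was counted as higher and 1 as lower. Arrdc4, an arrestin relative of Txnip driven by the same glucose-sensing factors, was low with it, at 395, 379 and 397 normalized counts in wild-type libraries and at 152, 146 and 362 in knockouts. Mlxipl, which encodes ChREBP, a member of that pair of glucose-sensing factors, ran the other way at 17.5, 20.5 and 24.0 against 65.1, 48.1 and 42.2. Its 3 knockouts lay close together, with replicate 3 also well above the wild type, unlike the pattern of the 10 genes. The list's median log2 fold change was -0.08.

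**Figure D4:**
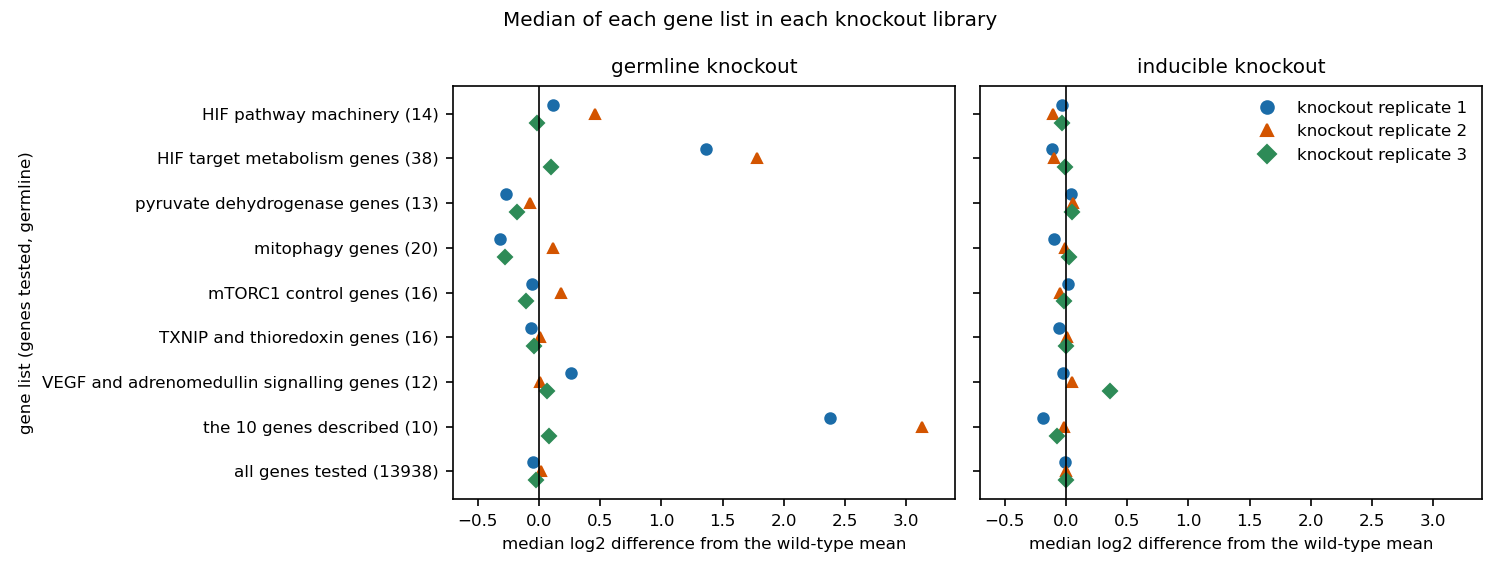
Median log2 difference from the wild-type mean (horizontal axis) of each gene list (vertical axis, with the number of genes tested in the germline table) in each knockout library. The HIF target list and the 10 genes stand at 1.36 to 3.13 in germline replicates 1 and 2, and the other germline lists lie between -0.32 and 0.46.

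The inducible libraries spread along a first principal component with 40.5% of the variance. Wild-type replicates 1 and 2 lay at 7.38 and 27.1 on it, and knockout replicates 1, 2 and 3 at -1.81, -9.82 and -22.9. Wild-type replicate 2 and knockout replicate 3 were thus the libraries at its ends. In the inducible knockouts none of the 10 genes passed the thresholds. Hif1a stood at 5339.5 and 5456 normalized counts in wild-type libraries and at 5849, 5286 and 5171 in knockouts, a log2 difference of 0.01 (95% confidence interval -0.14 to 0.16). Vegfa stood at 1978.5 and 2281 against 2063, 2124 and 2631, a log2 difference of 0.09 (-0.18 to 0.36). Adm stood at 10.8 and 13.8 against 21.4, 12.7 and 20.1, a log2 difference of 0.50 (-0.31 to 1.31). The groups overlapped for all 3 genes, and the interval of Adm, the gene with the fewest counts, was the widest of the 10.

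The mitochondrial genes lay slightly lower or level. Bnip3 stood at 511 and 658 normalized counts in wild-type libraries and at 498, 496 and 525 in knockouts, a log2 difference of -0.20 (95% confidence interval -0.46 to 0.07). Pdk1 stood at 1599 and 2197 against 1545, 1495 and 1764, a log2 difference of -0.23 (-0.55 to 0.09), and Fam162a at 1025 and 1228 against 1003, 1033 and 1002, a log2 difference of -0.15 (-0.35 to 0.05). In each of these, wild-type replicate 2 was the highest of the 5 libraries and the knockouts lay around or under wild-type replicate 1. Without wild-type replicate 2 the log2 differences were -0.015 for Bnip3, -0.0019 for Pdk1 and -0.017 for Fam162a, and without wild-type replicate 1 they were -0.38, -0.46 and -0.28. The difference thus rested on wild-type replicate 2. Bnip3l stood at 3259 and 3596 against 3369, 3500.3 and 3379.9, a log2 difference of -0.0033 (-0.14 to 0.13).

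Among the stress genes, Ddit4 was the single member whose inducible groups did not overlap. It stood at 1487 and 1622 normalized counts in wild-type libraries and at 1263, 1337 and 1388 in knockouts, a log2 difference of -0.23 (standard error 0.07, 95% confidence interval -0.39 to -0.06), lower in 3 of 3 knockouts. With limma its Benjamini-Hochberg adjusted p was 0.798, and the direction was opposite to that of germline replicates 1 and 2 and the same as in germline replicate 3. Ier3 stood at 47.3 and 55.3 against 32.9, 58.6 and 43.5, a log2 difference of -0.22 (-0.86 to 0.42), and Txnip at 1519.5 and 1228 against 1124, 1469.5 and 1365, a log2 difference of -0.06 (-0.37 to 0.25). Both overlapped.

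Over the 10 genes, 0 were counted as higher and 0 as lower by limma, beside 0.802% and 0.490% of the 14081 genes tested, and 1 (Ddit4) had an unadjusted P under 0.05, beside 6.01% of all. Knockout and wild-type values were fully separate for 0 higher genes and 1 lower gene, beside 10.4% and 12.2% of all genes. None of the 10 (0 of 10) had an adjusted p under 0.05, which 5 genes or 0.0355% of all reached, and the adjusted values of the 10 ran from 0.798 for Ddit4 to 0.995 for Bnip3l. The median log2 difference was -0.10 against -0.0019 for all genes. A p that misses the threshold does not show that the values did not differ, but the intervals bound the size: the upper limits were below a 1.5-fold increase for 9 genes, Adm being the exception, and the lower limits above a 1.5-fold decrease for 9 genes, Ier3 being the exception. The difference between the comparisons was not tested, since the germline contrast chose the genes.

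**Figure D5:**
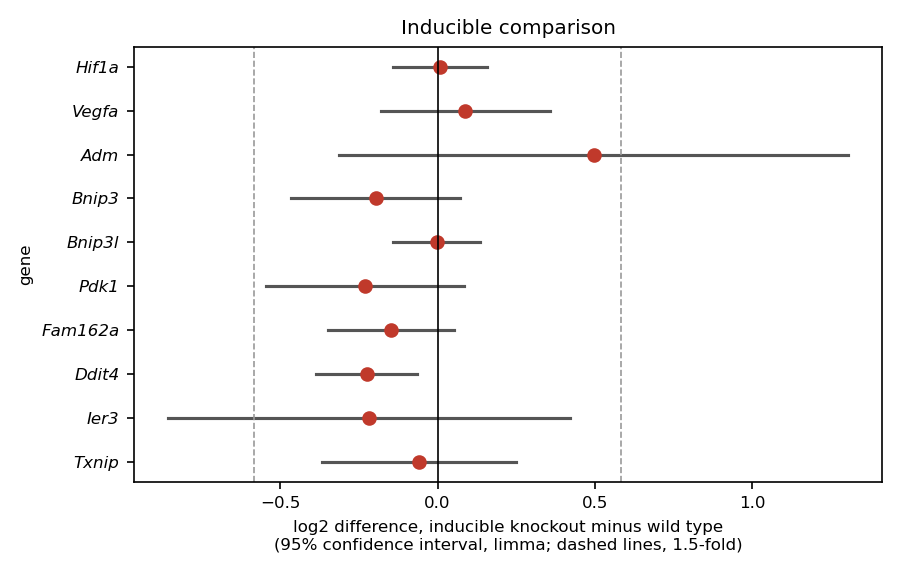
Log2 difference between inducible knockout and wild-type libraries (points) with its 95% confidence interval by limma (lines) for each gene, with dashed lines at a 1.5-fold change. The intervals of 9 genes span 0, that of Ddit4 lies below it, and those of Adm and Ier3 reach past a 1.5-fold change.

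The lists were near 0 in the inducible comparison as well. Of 37 HIF targets tested, 1 was counted as higher and 0 as lower by limma, with a median log2 difference of -0.09, and 6 had an unadjusted P under 0.05 (6.01% of all genes did) and 0 an adjusted p under 0.05. Of the 37, 27 lay below 0 and 10 above, against 7148 and 6933 of all genes, and the groups did not overlap for 5 lower and 3 higher ones, beside the 12.2% and 10.4% of all. The one that passed both thresholds was Ndrg1, a stress-responsive gene, at 31.5 and 26.7 normalized counts in wild-type libraries and at 46.6, 54.5 and 60.3 in knockouts (log2 difference 0.86, 95% confidence interval 0.35 to 1.37, limma adjusted p = 0.739). No gene of the other 6 lists was counted (0 by limma), and their medians ran from -0.05 for the HIF machinery to 0.14 for the VEGF and adrenomedullin genes. By knockout library the median of the VEGF and adrenomedullin genes was -0.02, 0.05 and 0.36. Of the 14 HIF machinery genes, 12 lay below 0 and 2 above. The most abundant genes of those lists had narrow intervals by limma, such as Hsp90ab1 at -0.05 (-0.20 to 0.10), Hsp90aa1 at 0.09 (-0.05 to 0.23), Pdha1 at 0.01 (-0.13 to 0.14) and Dld at 0.09 (-0.04 to 0.21). Nbr1, Gabarap, Tsc2 and Mtor gave log2 differences of 0.0011, -0.06, -0.05 and -0.04, and the peroxide-removing enzymes Prdx2 and Prdx1 gave -0.07 and 0.0070. The groups did not overlap for Hsp90aa1 and Dld, which were higher, nor for Gabarap and Mtor, which were lower, although all these intervals span 0. Nrp2 and Nrp1 gave 0.10 and 0.20 with wider intervals (-0.40 to 0.61 and -0.27 to 0.66).

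The inducible marker sums varied less than the germline ones. Microglial markers summed to 901 and 904 normalized counts in wild-type libraries and to 1044, 987 and 1303 in knockouts, and mesenchymal markers to 9928 and 6414 against 7635, 8750.1 and 9079. Endothelial markers summed to 5872 and 4372 against 4596, 5257 and 6496. Wild-type replicate 2, highest in Bnip3, Pdk1 and Fam162a, held the lowest mesenchymal and endothelial sums of the 5, and the lowest neuronal sum (59573 against 63409.6 to 75584), and the part of this in the results was not tested.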

How the data were processed

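Gene expression was measured by poly(A) RNA sequencing in 11 libraries of E12.5 mouse forebrain. Alignment to mm9 by the authors used TopHat (1.2.0 in the submitters' processing notes, another version in the paper). The authors counted a read once for each gene from RefSeq exons, and edgeR gave them TMM (trimmed mean of M-values) factors. The signal deposited is normalized counts, 1 table per comparison, not divided by length and not log-transformed. The values are scaled, and in some libraries many are fractions of a read, so no count model was used. TMM takes most genes as unchanged. Among inducible entries, 106 are written to 2 decimals (Kif20a and Y-linked genes included, 0 of the 10 genes), and 146 stand at another position than in the germline table. Columns for single samples left unused: 0.

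The scale was log2(normalized count + 1), on which changes of low genes come out smaller. R 4.3.3 with limma 3.58.1 fitted genotype alone in each table (lmFit, then eBayes with trend, two-sided), for genes whose mean reached 10 normalized counts. All 10 genes passed this filter in both tables, although Adm had a germline wild-type mean of 5.98 and passed it there through the knockout libraries. Benjamini-Hochberg adjustment ran over all genes tested. The fit was also run on simulated counts in which all libraries varied alike. The germline table holds outlying libraries, so that run does not show how the fit behaves there. Exon lengths are the union of protein-coding exons in GENCODE M1, whereas the authors counted on RefSeq exons. Python 3.11.15, numpy 2.4.6, pandas 2.3.3 and matplotlib 3.10.9 served for descriptions and plots. Named genes are the 10 genes, Kif20a, from each pathway list up to 4 genes past both thresholds without overlap (by size of change) or else the 2 with the highest mean, and for each of the 10 the 3 most correlated genes with a mean of at least 50 in both tables. Of the list genes, Castor1 was not matched by symbol. Y-linked genes and marker genes were named beside this rule. Alternatives were a pseudocount of 5, no filter, quantile normalization, the replicate number as a block, no mean-variance trend and each library left out. The 10 genes and the lists were chosen with earlier results of these data known.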

Additional observations from a re-analysis of the deposited data

Results flagged for a closer look

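In 3 of the 10 genes, every germline knockout library lay above the mean of its wild-type libraries and every inducible knockout library below the mean of its own. The same held for 5.18% of the 13741 genes tested in both tables, and the germline side restates the contrast that chose the genes. The germline log2 difference minus the inducible one was 2.74 for Bnip3, 2.02 for Pdk1 and 1.15 for Fam162a. This difference between the comparisons was not tested. In germline knockout replicate 3 the 3 genes lay above the wild-type mean by 0.28, 0.25 and 0.03 on the log2 scale. In the inducible comparison the log2 differences were -0.015, -0.0019 and -0.017 without wild-type replicate 2 and -0.38, -0.46 and -0.28 without wild-type replicate 1. Against wild-type replicate 1 each gene had a knockout library above it, so that lying below the wild-type mean rested on wild-type replicate 2. Groups of 2 or 3 libraries are too small for a test of single outlying libraries, which was not run.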

How the results depend on the processing

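Of the germline log2 differences of the 10 genes, 1 changed sign outside the left-out libraries: Hif1a was -0.0294 with quantile normalization, and between -0.0634 and 0.0841 with 1 library left out. The other 9 germline genes kept their direction under every alternative run. Of the 10 genes, the count higher in the germline past the thresholds ran from 0 to 8 with 1 library left out, and the lower count from 0 to 1. Without the mean-variance trend the higher count was 5 (Fam162a lost) and the lower 0. Over all genes that fit counted 316 higher and 129 lower, against 289 and 93 in the main fit. Why these counts moved was not tested. In the inducible comparison both counts were 0 under all alternatives. Inducible log2 differences near 0 changed sign with 1 library left out, with ranges of -0.0741 to 0.0676 for Bnip3l, -0.21 to 0.0946 for Txnip, -0.0214 to 0.19 for Vegfa and -0.0459 to 0.0429 for Hif1a. The cause was not tested. Inducible adjusted p-values from limma ran from 0.671 to 0.999 over the 10 genes and all alternatives.

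Replicate numbers are shared between groups. Deviations of same-numbered germline libraries from their group means correlated at -0.12, 0.31 and 0.25 over genes, and those of inducible libraries at -0.35 and -0.05, so the numbers were not taken to pair libraries. With the replicate number as a block, 7 germline genes of the set were higher (Ddit4 added) and 1 lower, beside 278 and 98 of all genes. In the inducible comparison 0 genes of the set were higher and 0 lower, beside 110 and 53 of all genes. The inducible log2 differences of Bnip3l and Vegfa changed sign in that fit, to 0.0044 and -0.0214. Inducible knockout replicate 3 has no wild-type partner and adds nothing to that fit.

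Over all genes, counts differed by more than 1.5 times without a filter on low values, with 180 germline genes lower against 93, and 212 inducible genes higher against 113 and 145 lower against 69. With 1 library left out, 115 to 617 germline genes were higher and 42 to 642 lower against 289 and 93, and 80 to 250 inducible genes were higher against 113 and 44 to 89 lower against 69. With 2 or 3 libraries a group, and Adm and Ier3 at few counts, small differences may have been missed. The smallest difference that could be detected was not measured.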

Other observations

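The genes whose log2 values most resembled each of the 10 over the 6 germline libraries were looked up among 11800 genes. Pearson r is given as a description. Germline knockout replicates 1 and 2 lie far from the other libraries and dominate it, and the value over the 5 inducible libraries, which share none of those samples, is set beside it.

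Bnip3 was followed most closely by P4ha1, a collagen hydroxylase (r = 0.998, inducible 0.825), Arnt, the partner of HIF-1 alpha (0.996, inducible 0.442) and Tpi1, a glycolytic enzyme (0.995, inducible 0.949). Pdk1 was followed by Slc2a3 (0.996, inducible 0.757), P4ha1 (0.995, inducible 0.70) and Arnt (0.995, inducible 0.253). Arnt stood at 840, 863 and 888 normalized counts in germline wild-type libraries and at 1214, 1287 and 905 in knockouts, without overlap and below a 1.5-fold change between the group means.

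Ier3 was followed by Ankrd37 (0.997, inducible 0.597), Slc2a3 (0.995, inducible 0.632) and Plod2 (0.993, inducible 0.69), and Fam162a by Stc2 (0.994, inducible 0.215), Ccdc115 (0.994, inducible 0.395) and Bhlhe40 (0.992, inducible 0.381). Bnip3l was followed by Arrdc3, an arrestin relative of Txnip (0.998, inducible 0.0102), Slc37a4, a glucose-6-phosphate transporter (0.994, inducible 0.237) and Lace1 (0.994, inducible -0.492). Ddit4 was followed by Slc37a4 (0.998, inducible 0.775), Zkscan7 (0.997, inducible -0.0814) and Odc1, the first enzyme of polyamine synthesis (0.996, inducible -0.0115). Arrdc3 stood at 1886, 1337 and 1238 normalized counts in germline wild-type libraries and at 4197, 7287 and 1183 in knockouts. In replicates 1 and 2 it was high where its relatives Txnip and Arrdc4 were low, and in replicate 3 all 3 genes lay below the wild-type range.

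Txnip was followed by Mrpl46, a protein of the mitochondrial ribosome (0.9996, inducible -0.0825), Gxylt1 (0.997, inducible -0.422) and Cnih4 (0.997, inducible -0.583). Mrpl46 stood at 351, 336 and 339 normalized counts in wild-type libraries and at 255, 156 and 324 in knockouts. Vegfa was followed by Slc16a6 (0.996, inducible -0.386), Ankzf1 (0.996, inducible -0.463) and Ccdc61 (0.995, inducible -0.568), and Adm by Adamts9 (0.992, inducible -0.654), Qars (0.992, inducible -0.715) and Fosl2 (0.991, inducible 0.179). For the neighbours of Txnip and Vegfa r was negative in the inducible libraries. By germline r, though not by the inducible values, Hif1a had the loosest neighbours, Acyp1 (0.987, inducible 0.766), Smc3 (0.976, inducible 0.964) and Golph3 (0.974, inducible 0.367).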
